A study of Mus musculus with 4 samples.

Results

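Heat shock proteins and their DnaJ partners are the molecular chaperones, proteins that help others fold, of the mouse cell, and their transcripts were measured here in epididymal fat, the visceral depot next to the male reproductive tract. The genes were taken by symbol: every gene on the array named as a member of the Hspa, Hspb, Hspd, Hspe, Hsph, Hsp90, Dnaja, Dnajb or Dnajc series, with pseudogenes left out. That rule gave 70 of the 18194 genes measured. Each gene was read from its brightest probe set, judged by mean log2 signal over the 4 arrays. The median of all probe sets of an array served as its background. Of the 70, 59 were above background on all 4 arrays, 5 on some of them and 6 on none.

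The arrays came from epididymal fat of C57Bl/6J mice that entered the study at 9 weeks of age and ate their diet for 21 weeks. Both diets drew 60% of their energy from fat. The high-calcium whey diet held 1.8% calcium and whey protein isolate, and 2 arrays carry this label. The standard high-fat diet held 0.4% calcium, and 1 array carries this label. A further array is titled with the subject of the study, which names neither diet. Its values are given on their own and enter no comparison between the diets. Of the 10 mice fed each diet, 2 were profiled, per the labels. By that count the array without a stated diet would belong to the standard diet. No label says so, and this was not tested. Calcium and the protein source changed together, so an effect of either cannot be told apart from the other. With 1 standard array, only the 2 high-calcium arrays give a spread for a gene. The test draws it toward a value common to all genes, and only differences far beyond the resulting spread could pass.

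Hsp70 proteins bind stretches of unfolded chain and release them with the use of ATP. J-domain proteins of the DnaJ family deliver the client and start the ATP cycle, Hsp110 proteins exchange the nucleotide, Hsp90 completes the folding of kinases and steroid receptors, and Hsp60 with its lid Hsp10 encloses proteins inside mitochondria. Small heat shock proteins hold unfolded chains without ATP, and several of them are best known from muscle. In fat, the chaperones of the endoplasmic reticulum serve the heavy traffic of secreted adipokines. The inducible heat shock proteins answer heat and protein damage through the heat shock factor Hsf1.

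Promoters of 7 members are printed because they hold elements through which such genes are known to be induced, or belong to genes that stood out on 1 array. All are RefSeq sequence of GRCm38.p6, 250 bases before to 50 after an annotated start, read 5′ to 3′ on the gene's strand. Capitals mark paired heat shock units, GAANNTTC or TTCNNGAA, except in Hspa5. The inducible Hsp70 genes Hspa1a (chr17:34972107-34972406, minus strand) and Hspa1b (chr17:34959189-34959488, minus strand) are shown because their windows were equal at 296 of 300 positions, and each held 1 such pair.
Hspa1a: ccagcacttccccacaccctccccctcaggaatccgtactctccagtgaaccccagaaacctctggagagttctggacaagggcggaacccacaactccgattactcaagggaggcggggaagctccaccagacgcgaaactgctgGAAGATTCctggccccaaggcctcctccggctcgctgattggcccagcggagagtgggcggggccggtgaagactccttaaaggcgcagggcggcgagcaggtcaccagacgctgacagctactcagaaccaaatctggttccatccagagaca
Hspa1b: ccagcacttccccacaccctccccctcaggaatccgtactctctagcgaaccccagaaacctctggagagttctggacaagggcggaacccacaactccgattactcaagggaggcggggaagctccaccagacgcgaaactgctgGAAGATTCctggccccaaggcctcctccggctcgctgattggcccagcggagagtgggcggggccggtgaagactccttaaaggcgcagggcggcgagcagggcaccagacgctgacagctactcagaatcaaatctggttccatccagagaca

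The second set holds a longer element of 3 alternating units, GAANNTTCNNGAA or TTCNNGAANNTTC. It is shown in Hsph1, an Hsp110 gene (chr5:149636287-149636586, minus strand), and in Hspe1, which encodes Hsp10 (chr1:55087898-55088197, plus strand). Hspd1, the Hsp60 gene, is read from the opposite strand, and a window of it shared 285 bases with that of Hspe1.
Hsph1: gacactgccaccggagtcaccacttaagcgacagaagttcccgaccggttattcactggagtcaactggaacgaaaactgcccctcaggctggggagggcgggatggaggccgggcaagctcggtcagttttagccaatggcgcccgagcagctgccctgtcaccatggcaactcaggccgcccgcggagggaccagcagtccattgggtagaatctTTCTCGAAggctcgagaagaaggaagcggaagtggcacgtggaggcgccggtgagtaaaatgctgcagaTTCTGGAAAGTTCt
Hspe1: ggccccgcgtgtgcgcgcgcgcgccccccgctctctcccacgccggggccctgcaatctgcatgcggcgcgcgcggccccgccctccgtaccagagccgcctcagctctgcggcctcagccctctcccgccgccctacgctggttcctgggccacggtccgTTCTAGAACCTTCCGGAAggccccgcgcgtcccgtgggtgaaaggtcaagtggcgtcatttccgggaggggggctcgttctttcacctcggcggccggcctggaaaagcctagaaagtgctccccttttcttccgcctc

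The last set holds Hspb6 and Dnaja4, which stood out on 1 array each, and the endoplasmic reticulum gene Hspa5. Hspb6, a small heat shock gene (chr7:30553051-30553350, plus strand), and Dnaja4 (chr9:54699309-54699608, plus strand) each have a second annotated start upstream whose window held no pair. In Hspa5, which encodes the endoplasmic reticulum Hsp70 (chr2:34771840-34772139, plus strand), capitals mark the endoplasmic reticulum stress element, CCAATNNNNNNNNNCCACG.
Hspb6: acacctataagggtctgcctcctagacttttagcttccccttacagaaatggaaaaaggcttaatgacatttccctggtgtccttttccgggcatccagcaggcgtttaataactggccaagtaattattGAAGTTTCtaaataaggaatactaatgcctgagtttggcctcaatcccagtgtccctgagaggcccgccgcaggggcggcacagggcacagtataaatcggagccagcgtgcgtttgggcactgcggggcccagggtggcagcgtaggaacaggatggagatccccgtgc
Dnaja4: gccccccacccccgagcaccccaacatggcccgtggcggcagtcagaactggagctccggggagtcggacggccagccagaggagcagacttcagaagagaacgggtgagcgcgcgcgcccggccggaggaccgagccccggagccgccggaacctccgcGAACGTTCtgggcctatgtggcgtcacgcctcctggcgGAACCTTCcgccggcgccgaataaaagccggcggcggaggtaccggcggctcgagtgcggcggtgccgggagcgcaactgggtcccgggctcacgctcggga
Hspa5: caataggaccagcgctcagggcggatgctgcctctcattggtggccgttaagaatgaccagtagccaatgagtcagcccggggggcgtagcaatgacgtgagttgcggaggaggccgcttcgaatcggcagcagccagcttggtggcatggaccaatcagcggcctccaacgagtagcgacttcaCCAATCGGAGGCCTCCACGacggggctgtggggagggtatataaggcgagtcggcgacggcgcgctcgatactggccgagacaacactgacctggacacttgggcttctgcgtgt

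A promoter window was at hand for 57 of the 70 genes, and each motif was sought on both strands. The element of 3 units occurred in 4 of the 57, Hspd1, Hspe1, Hsph1 and Dnajb6, or 7.02%, against 0.662% of the 27025 genes with a window. Since Hspd1 and Hspe1 share their window, these are 3 separate stretches. The pair GAANNTTC, which lies inside the longer element too, occurred in 14 of the 57 (24.6%, against 9.04% of all genes), and TTCNNGAA in 6 (10.5%, against 9.60%). The endoplasmic reticulum stress element occurred in 3, Hspa5, Hsp90b1 and Dnajc3, or 5.26%, against 0.137% of all genes. CCAAT was found in 24 (42.1%, against 41.1%) and TATAAA in 3 (5.26%, against 15.7%). A match describes the letters of a window and does not show that a factor binds there.

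No chaperone gene passed the test between the diets. In limma's fit over all 18194 genes, 0 were called at an adjusted p of 0.05 (0%), and 0 of the 70 chaperone genes were among them. At an unadjusted p of 0.05, 898 genes passed, of which 1 was a chaperone gene, Dnajb7, which was under background on all 4 arrays. For all 59 genes above background the adjusted p was 0.9999, so differences are given below as values with their standard errors (SE) and 95% intervals. Such a difference is the mean log2 signal of the high-calcium arrays minus the log2 signal of the standard array. Because limma draws each gene's spread toward a common value, an SE can far exceed the spread of the 2 arrays. For Dnaja1 the SE was 0.32, while its high-calcium arrays were 0.005 apart.

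Of the 59, 20 were higher on both high-calcium arrays than on the standard array (33.9%), against 35.4% of all 10463 genes above background on every array. Another 17 were lower on both (28.8%), against 27.1% of all genes, and 22 lay on either side. With array medians set equal, 3 were higher and 29 lower on both, a setting without a count over all genes. The median difference was then -0.30 for the 59 and -0.29 for all genes above background. Over all genes measured it was -0.24, in place of 0.079. As deposited, both shares were near those of all genes, and the median difference was 0.018 for the chaperones and 0.030 for all genes above background. Hspb7 and Dnajb5 were at least 1.5-fold higher on both high-calcium arrays, where 2.11% of all genes were. Dnaja4 was at least 1.5-fold lower on both, where 1.12% of all genes were. Another 61 probe sets, of 36 of the genes, were above background on all 4 arrays, and 35 of the 61 gave a difference of the same sign as the brightest probe set.

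**Figure D1:**
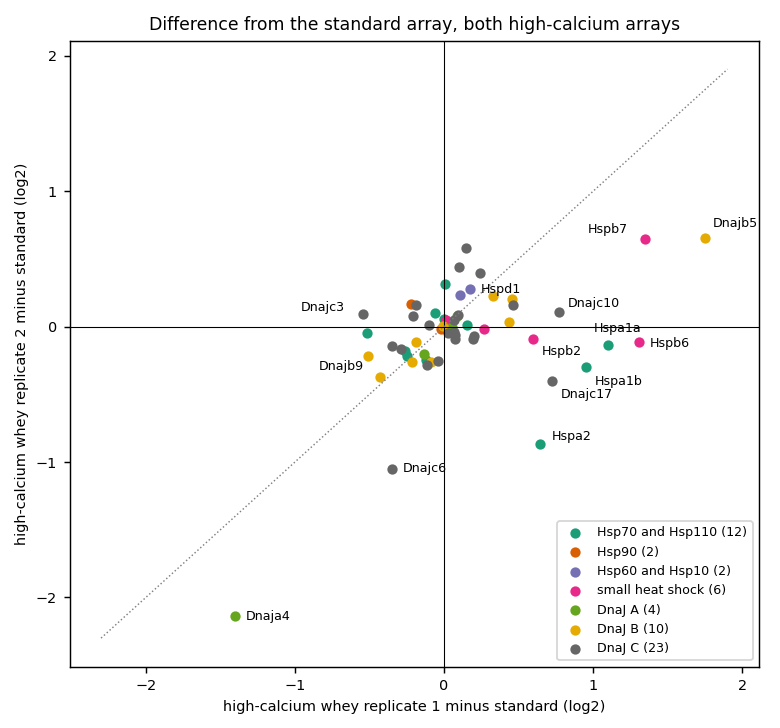
Log2 difference from the standard array on high-calcium whey replicate 1 (x axis) and replicate 2 (y axis) for the 59 chaperone genes above background on all 4 arrays, 1 point per gene, coloured by class. Most genes lie near 0 on both axes, Hspb7 and Dnajb5 lie high on both, Dnaja4 lies low on both, and Hspb6, Hspa1a and Hspa1b lie high on replicate 1 alone.

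Many chaperone genes varied little over the arrays. In 22 of the 59 the highest and lowest of the 4 arrays were within 1.2-fold (37.3%), against 23.3% of all genes above background, a comparison in which brightness was not matched. In 44 the range was within 1.5-fold (74.6%), against 64.3% of all genes above background. The 2 high-calcium arrays stood at least 1.5-fold apart in 12 of the 59 (20.3%), where 18.7% of all genes did. Replicate 1, whose array median was 0.0963 against 0.0628 on replicate 2, was the higher in 11 of these 12. It was also the higher in 71.1% of the 1958 genes so far apart among all genes. In 34 of the 59 that gap between arrays of the same diet was larger than the difference between the diets (57.6%), as it was in 60.4% of all genes above background.

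**Figure D2:**
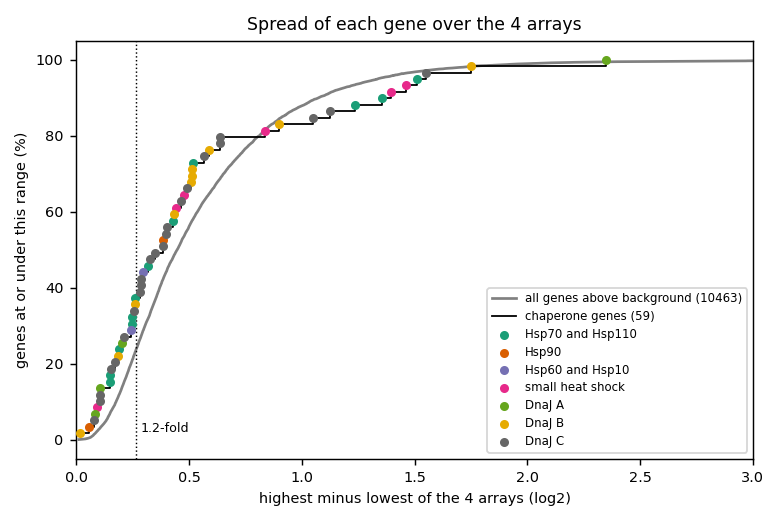
Share of genes (y axis, percent) whose highest and lowest of 4 arrays differ by no more than a given log2 range (x axis), for the 59 chaperone genes and for all 10463 genes above background on every array. The chaperone line lies above that of all genes at small ranges, with 37.3% and 23.3% at a range of 1.2-fold.

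The tissue label was checked against adipocyte markers. Of 10 listed, 7 were measured, among them the adipokine gene Adipoq and the fatty acid carrier Fabp4, and all 7 were above background on every array. Their summed signal was 143 and 132 on the high-calcium arrays, against 125 on the standard array, and 121 on the array without a stated diet. High-calcium replicate 1 stood apart in other cell types. Smooth muscle markers summed to 81.4 on it and 14.9 on replicate 2, against 15.0 on the standard array, and 10 of the 11 were higher on replicate 1 than on replicate 2. Macrophage markers summed to 34.8 and 56.1 on the high-calcium arrays, against 53.3 on the standard array, and all 8 were lowest on replicate 1. Mesothelial markers summed to 4.998 and 2.10 with high-calcium whey, against 1.75 with the standard diet. Of these 6 markers, 5 were higher than the standard array on both high-calcium arrays. Krt19 was not, at 2.55 and 0.270 with high-calcium whey, against 0.645 with the standard diet. B cell markers summed to 2.73 and 0.546 with high-calcium whey, against 0.705 with the standard diet. Erythroid markers summed to 0.418 and 0.276 with high-calcium whey, against 0.324 with the standard diet. Of the markers measured, 2 of 5 for B cells and 1 of 4 for erythroid cells were above background on every array. In whole fat, fewer cells of a type and less RNA per cell cannot be told apart.

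**Figure D3:**
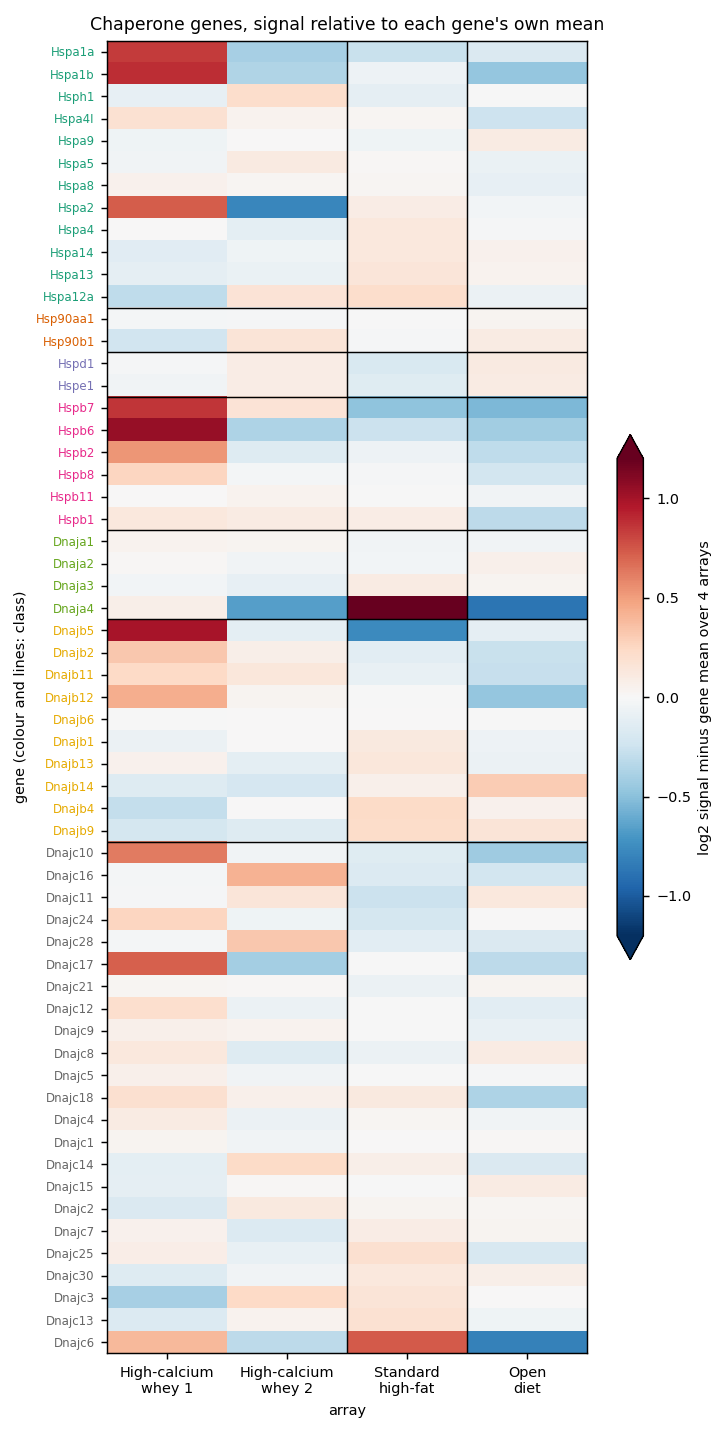
Log2 signal of each chaperone gene above background on all 4 arrays (rows, grouped by class) relative to its own mean over the 4 arrays (colour, log2). The columns are high-calcium whey replicates 1 and 2, the standard array and the array without a stated diet, and the strongest reds fall on Dnaja4 in the standard array and on Hspb6, Dnajb5, Hspa1b, Hspb7 and Hspa1a in high-calcium replicate 1.

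Among the Hsp70 and Hsp110 genes, 12 of 14 were above background on every array, 3 were higher and 4 lower on both high-calcium arrays, and the median difference was 0.016. The constitutive core varied little on its brightest probe sets. Hspa8, the Hsc70 that serves folding and clathrin uncoating in every cell, had 22.1 and 21.7 on the high-calcium whey arrays, against 21.7 on the standard array. The array without a stated diet read 20.0, and the difference was 0.015 (SE 0.32, 95% interval -1.17 to 1.20). A dimmer probe set of Hspa8 gave 4.35 and 5.31 with high-calcium whey, against 6.40 with the standard diet, so the probe sets of this gene did not order the arrays alike.

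Hspa5, the endoplasmic reticulum chaperone also called BiP, had 14.2 and 15.9 on the high-calcium whey arrays, against 14.9 on the standard array, and 13.9 on the array without a stated diet. The standard array lay between the high-calcium arrays, and the difference was 0.018 (SE 0.33), with -0.25 and 0.23 on dimmer probe sets. Hspa9, the mitochondrial Hsp70 that pulls proteins through the import channel, read 3.40 and 3.54 with high-calcium whey, against 3.40 with the standard diet, with 3.76 on the remaining array, and dimmer probe sets gave 0.045 and 0.56. In none of these 3 genes was the difference on the brightest probe set larger than its SE.

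The stress-inducible pair was high on high-calcium replicate 1. Hspa1a had 0.475 and 0.202 on the high-calcium whey arrays, against 0.222 on the standard array, and 0.236 on the array without a stated diet. Hspa1b had 2.13 and 0.896 on the high-calcium whey arrays, against 1.10 on the standard array, and 0.833 on that remaining array. In both genes replicate 1 was the highest of the 4 arrays and replicate 2 lay below the standard array. The arrays of the same diet were 2.36-fold apart for Hspa1a and 2.38-fold apart for Hspa1b. Differences between the diets were 0.48 (SE 0.76, 95% interval -2.35 to 3.32) for Hspa1a and 0.33 (SE 0.77) for Hspa1b, smaller than those gaps.

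Further probe sets of Hspa1b showed replicate 1 highest as well. The first read 0.995 and 0.360 with high-calcium whey, against 0.312 with the standard diet, and the next read 1.44 and 0.618 with high-calcium whey, against 0.503 with the standard diet. On these, replicate 2 was above the standard array. Given the near-identical copies, how far each probe set reads 1 gene or both was not tested. With arrays centred on their medians, the gap between the high-calcium arrays was 0.62 (log2) for Hspa1a and 0.64 for Hspa1b, against 1.24 and 1.25 as deposited.

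Hsph1 and Dnajb1, which heat shock is also known to induce, did not place replicate 1 highest on their brightest probe sets. Hsph1, whose promoter holds the 3-unit element, had 1.02 and 1.27 on the high-calcium whey arrays, against 1.02 on the standard array. Dnajb1, the J-domain partner of inducible Hsp70, had 1.11 and 1.16 on the high-calcium whey arrays, against 1.26 on the standard array. Replicate 1 equalled the standard array for Hsph1 and was below it for Dnajb1, with differences of 0.16 and -0.15 between the diets. A dimmer Dnajb1 probe set read 0.971 and 0.795 with high-calcium whey, against 0.883 with the standard diet, and there replicate 1 was the highest of the 4 arrays.

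Hspa2, an Hsp70 gene that is essential in male germ cells, had the widest gap between the high-calcium arrays among the genes of its class above background on all 4 arrays. It read 0.327 and 0.115 with high-calcium whey, against 0.209 with the standard diet, with 0.193 on the array without a stated diet. The standard array lay between the high-calcium arrays, which were 2.85-fold apart. Markers of haploid germ cells, which the neighbouring epididymis holds as sperm, summed to 4.59 and 0.448 on the high-calcium arrays, against 2.81 on the standard array and 0.248 on the remaining one. Of these 9 markers 1, the protamine gene Prm1, was above background on every array, all 9 were higher on replicate 1 than on replicate 2, and their part in the Hspa2 values was not tested.

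The exchange factors and most outlying members of the class differed less, with Hspa12b as the exception. Hspa4, an Hsp110, had 2.60 and 2.38 on the high-calcium whey arrays, against 2.83 on the standard array, a difference of -0.19, and 1 of its dimmer probe sets gave 0.235 and 0.243 with high-calcium whey, against 0.236 with the standard diet. Hspa14, which works with a J-protein at the ribosome, read 1.11 and 1.17 with high-calcium whey, against 1.33 with the standard diet, and Hspa13, a microsomal Hsp70 relative, read 1.04 and 1.06 with high-calcium whey, against 1.24 with the standard diet. Hspa12a, a distant relative, read 0.474 and 0.655 with high-calcium whey, against 0.679 with the standard diet. On their brightest probe sets all 4 were lower on both high-calcium arrays, with log2 differences of -0.19 to -0.28. The second brightest probe set of Hspa13 read 0.409 and 0.320 with high-calcium whey, against 0.331 with the standard diet. A dimmer one was higher on both high-calcium arrays, at 0.149 and 0.186, against 0.114 on the standard array, a difference of 0.55. Hspa4l, another Hsp110, read 0.399 and 0.361 with high-calcium whey, against 0.358 with the standard diet. Hspa12b, another distant relative, read 0.0142 and 0.151 with high-calcium whey, against 0.137 with the standard diet, and was below background on high-calcium replicate 1, and Hspa1l was below it on all 4.

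Both Hsp90 genes measured were close between the diets on their brightest probe sets. Hsp90aa1, the inducible cytosolic Hsp90, had 8.52 and 8.55 on the high-calcium whey arrays, against 8.65 on the standard array, and 8.87 on the array without a stated diet. These readings differed by -0.018 (SE 0.32, 95% interval -1.20 to 1.16), and dimmer probe sets gave -0.20 and -0.11. Hsp90b1, the endoplasmic reticulum Hsp90 also called Grp94, had 4.51 and 5.90 on the high-calcium whey arrays, against 5.25 on the standard array. Its standard value lay between the high-calcium arrays, with a difference of -0.026 (SE 0.38), and a dimmer probe set gave -0.30.

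On their brightest probe sets, the mitochondrial pair that folds imported proteins ordered the 4 arrays alike. Hspd1, the Hsp60 chamber, had 7.23 and 7.77 on the high-calcium whey arrays, against 6.42 on the standard array, and 7.89 on the array without a stated diet. Hspe1, its Hsp10 lid, had 6.20 and 6.77 on the high-calcium whey arrays, against 5.75 on the standard array, and 6.81 on the remaining array. In both the standard array was the lowest of the 4 and replicate 2 was above replicate 1. The differences were 0.22 (SE 0.32, 95% interval -0.98 to 1.42) for Hspd1 and 0.17 (SE 0.33, 95% interval -1.04 to 1.38) for Hspe1. A second probe set of Hspe1 read 2.29 and 1.83 with high-calcium whey, against 1.35 with the standard diet. There the standard array was again the lowest, but replicate 1 was above replicate 2. When arrays were centred on their own medians both differences turned negative, to -0.094 for Hspd1 and -0.15 for Hspe1, and the median of all genes above background then stood at -0.29.

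As deposited, most small heat shock genes were highest on high-calcium replicate 1. Of 8 measured, 6 were above background on every array, and replicate 1 was the highest of the 4 arrays in 5 of these 6, where it was highest in 41.7% of all genes above background. The median over the 6 was 0.43 above the standard array on replicate 1 and -0.0065 on replicate 2. With arrays centred on their medians, the log2 gap between the high-calcium arrays was 0.80 for Hspb6, 0.084 for Hspb7 and 0.068 for Hspb2. As deposited these gaps were 1.42, 0.70 and 0.68. After centring, replicate 1 lay below replicate 2 for Hspb8 (-0.33) and Hspb1 (-0.59). Hspb6, a small heat shock protein of smooth and cardiac muscle, had 2.70 and 1.01 on the high-calcium whey arrays, against 1.09 on the standard array, and 0.979 on the array without a stated diet. Replicate 1 stood alone, 2.68-fold above replicate 2, while the other 3 arrays were close. The difference between the diets was 0.60 (SE 0.86, 95% interval -2.59 to 3.78).

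Most muscle markers were also high on replicate 1. Myh11, smooth muscle myosin, read 4.34 and 0.127 with high-calcium whey, against 0.237 with the standard diet, and the actin-binding Tagln read 11.3 and 0.728 with high-calcium whey, against 1.48 with the standard diet. Replicate 1 was the highest array for 10 of the 11 smooth muscle markers, of which 8 were above background on every array. Skeletal muscle markers summed to 2.83 and 1.70 on the high-calcium arrays, against 1.48 on the standard array. Replicate 1 was the highest array for 9 of these 10. Only Acta1 and Pvalb were above background on every array, and Tnnt3 and Myh4 were on none. Acta1 read 1.25 and 0.527 with high-calcium whey, against 0.544 with the standard diet. Pvalb went the other way, at 0.344 and 0.839 with high-calcium whey, against 0.572 with the standard diet. The part of muscle markers in the Hspb6 and Hspb7 values was not tested.

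Hspb7, a small heat shock protein of heart and muscle, had 0.837 and 0.515 on the high-calcium whey arrays, against 0.329 on the standard array, and 0.318 on the array without a stated diet. Both high-calcium arrays were above the standard array, 2.54-fold and 1.57-fold, and the difference was 0.998 (SE 0.51, 95% interval -0.88 to 2.87). The next brightest probe set ordered the diets alike, at 0.368 and 0.314 with high-calcium whey, against 0.214 with the standard diet. A dim one read 0.123 and 0.0650 with high-calcium whey, against 0.0920 with the standard diet, so there the standard array lay between the high-calcium arrays.

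**Figure D4:**
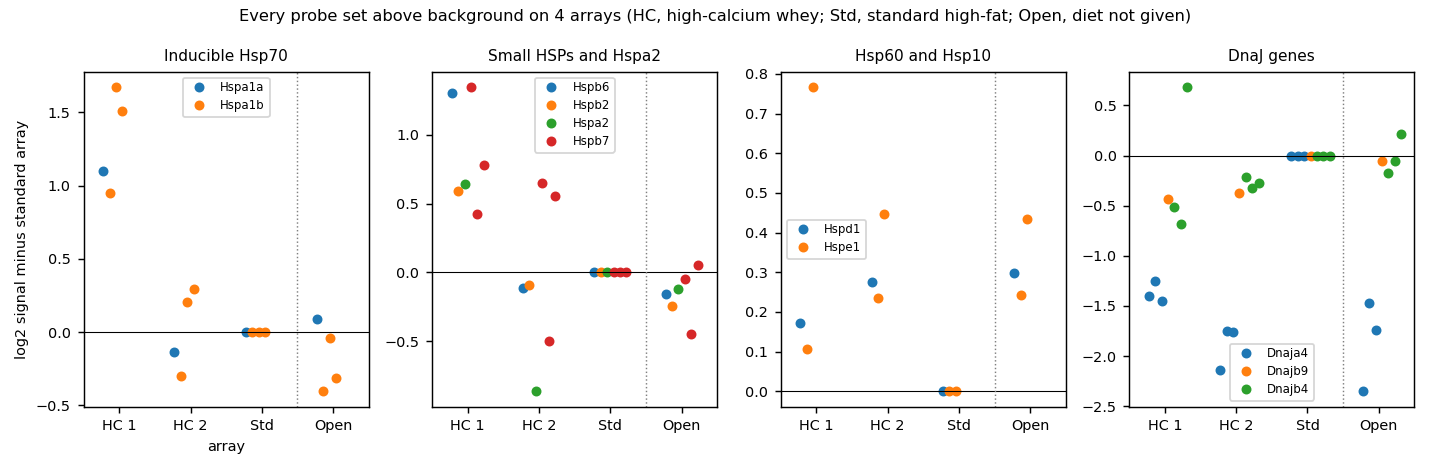
Log2 signal of each probe set above background on all 4 arrays, relative to its own standard array (y axis), for selected chaperone genes in panels, with the arrays on the x axis (HC, high-calcium whey; Std, standard; Open, diet not stated). All 3 Dnaja4 probe sets lie between -1.25 and -2.14 on the high-calcium arrays, and all Hspa1a and Hspa1b probe sets are highest on high-calcium replicate 1.

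On their brightest probe sets the other small heat shock genes differed less. Hspb2, a partner of Hspb3 in muscle, read 0.304 and 0.189 with high-calcium whey, against 0.201 with the standard diet, with replicate 1 above the other arrays. Hspb8, which works with the co-chaperone Bag3 in removing damaged proteins, read 1.88 and 1.54 with high-calcium whey, against 1.55 with the standard diet. Its other probe sets disagreed, with 0.662 and 0.499 with high-calcium whey, against 0.268 with the standard diet on the first, and 0.680 and 0.568 with high-calcium whey, against 0.780 with the standard diet on the next. Hspb1, the widely expressed Hsp27, read 5.25 and 5.15 with high-calcium whey, against 5.13 with the standard diet, and 3.86 on the array without a stated diet, the lowest of the 4. Hspb11, known as a component of ciliary transport, read 0.664 and 0.681 with high-calcium whey, against 0.657 with the standard diet. Hspb3 and Hspb9 were under background on every array.

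All 4 class A J-proteins were above background on every array, 1 higher and 2 lower on both high-calcium arrays. Dnaja4, a cytosolic partner of Hsp70, gave the widest difference of the 59 genes. It had 0.339 and 0.203 on the high-calcium whey arrays, against 0.894 on the standard array, and 0.175 on the array without a stated diet. The standard array alone was high, 2.64-fold above replicate 1 and 4.40-fold above replicate 2. Its log2 difference was -1.77 (SE 0.52, 95% interval -3.71 to 0.17), with an unadjusted p of 0.060 and an adjusted p of 0.9999 by limma.

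The other 2 probe sets of Dnaja4 placed the standard array highest too. They read 0.246 and 0.174 with high-calcium whey, against 0.585 with the standard diet, and 0.0978 and 0.0790 with high-calcium whey, against 0.268 with the standard diet. The direction for Dnaja4 was the same in every alternative processing tried. Markers of ciliated duct cells were also high on the standard array, with a sum of 0.403 and 0.310 on the high-calcium arrays, against 1.75 on the standard array and 0.277 on the remaining one. Of these 7 markers 1 was above background on every array and 5 on the standard array, and Tmem212 read 0.0142 and 0.0205 with high-calcium whey, against 0.922 with the standard diet. Endothelial markers were highest there as well in 7 of 8. They summed to 6.21 and 5.40 with high-calcium whey, against 9.13 with the standard diet and 5.44 on the remaining array. Their part in the Dnaja4 value was not tested.

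The rest of class A was close on the brightest probe sets. Dnaja1, the main cytosolic J-partner of Hsc70, read 6.99 and 6.97 with high-calcium whey, against 6.60 with the standard diet, and both high-calcium arrays were above the standard array with a difference of 0.081 (0.10 and -0.15 on dimmer probe sets). Dnaja2, its cytosolic relative, read 5.92 and 5.68 with high-calcium whey, against 5.70 with the standard diet, and Dnaja3, the mitochondrial J-protein, read 1.001 and 0.954 with high-calcium whey, against 1.10 with the standard diet. The standard array lay between the others for Dnaja2 and above both for Dnaja3, and dimmer probe sets of Dnaja2 gave differences of -0.55 to 0.39.

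Class B had 10 of 13 genes above background on every array, 4 higher and 5 lower on both high-calcium arrays. The endoplasmic reticulum J-proteins did not all lie on the same side of the standard array. Dnajb9, which is induced when unfolded protein collects there, had 2.95 and 3.07 on the high-calcium whey arrays, against 3.98 on the standard array, with 3.82 on the array without a stated diet. Both high-calcium arrays were lower than the standard array, and the difference was -0.40 (SE 0.32). Dnajb11, which helps Hspa5 bind new chains, read 1.02 and 0.948 with high-calcium whey, against 0.810 with the standard diet, higher on both, with a difference of 0.28 (SE 0.32).

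Dnajc10, a J-protein that also reduces disulfide bonds, had 1.34 and 0.841 on the high-calcium whey arrays, against 0.783 on the standard array, a difference of 0.44. Replicate 1 was the higher of the high-calcium arrays, and the 3 probe sets of the gene gave differences of 0.43 to 0.47. Dnajc3, which restrains the kinase Eif2ak3 and carries the stress element in its promoter, read 1.23 and 1.91 with high-calcium whey, against 1.80 with the standard diet. Replicate 1 was low on that probe set, whose difference was -0.23, while its 3 other probe sets above background on every array gave 0.051 to 0.14. Dnajc1, a membrane J-protein of the same organelle, read 0.970 and 0.919 with high-calcium whey, against 0.951 with the standard diet.

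In the cytosol, Dnajb4, a heat-inducible J-protein, read 1.71 and 2.10 with high-calcium whey, against 2.44 with the standard diet, lower on both, with a difference of -0.37. Its second probe set gave -0.50, and a dim one gave 0.20. Dnajb6, which keeps aggregation-prone proteins soluble, had the smallest range of the 59, with 3.06 and 3.08 with high-calcium whey, against 3.08 with the standard diet, and 3.05 on the array without a stated diet, while dimmer probe sets gave differences of -0.20 and 0.082. Dnajb5 had 0.216 and 0.101 on the high-calcium whey arrays, against 0.0642 on the standard array, and 0.102 on the remaining array. Both high-calcium arrays were higher, with a difference of 1.20 (SE 0.69), but the standard value sat close to that array's background of 0.0624, and both other probe sets fell under background on some array. Of the membrane J-proteins that act in protein disposal, Dnajb12 read 0.373 and 0.282 with high-calcium whey, against 0.276 with the standard diet, and Dnajb14 read 0.364 and 0.351 with high-calcium whey, against 0.422 with the standard diet.

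Dnajb2, which sorts clients for degradation, read 0.509 and 0.428 with high-calcium whey, against 0.372 with the standard diet, higher on both high-calcium arrays. Dnajb13, a protein of the sperm tail and motile cilia, read 0.502 and 0.445 with high-calcium whey, against 0.533 with the standard diet. Dnajb3 and Dnajb7 were under background on every array. Dnajb8, known from testis, exceeded background on the array without a stated diet alone.

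Class C is the largest and most diverse, and 23 of its 27 genes were above background on every array, 7 higher and 5 lower on both high-calcium arrays, with a median difference of 0.0072. Dnajc6, the auxilin that recruits Hsc70 to clathrin coats, had the largest difference among these 23, at -0.70. It read 0.335 and 0.206 with high-calcium whey, against 0.427 with the standard diet, with 0.146 on the array without a stated diet. Both high-calcium arrays were lower than the standard array, but the array without a stated diet was lower still, and the other 3 probe sets were under background on every array.

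Dnajc17, a J-protein with an RNA-binding domain, had the widest gap among the 23 between arrays of the same diet. It read 0.832 and 0.382 with high-calcium whey, against 0.505 with the standard diet, so the standard array lay between high-calcium arrays that were 2.18-fold apart. Dnajc16 read 0.168 and 0.228 with high-calcium whey, against 0.152 with the standard diet, with replicate 2 highest.

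On their brightest probe sets, mitochondrial J-proteins of the class varied little. Dnajc15, at the import motor, read 4.09 and 4.43 with high-calcium whey, against 4.39 with the standard diet. Dnajc11, found with the complex that shapes cristae, read 0.403 and 0.450 with high-calcium whey, against 0.341 with the standard diet, and Dnajc30, tied to respiratory function, read 0.872 and 0.946 with high-calcium whey, against 1.06 with the standard diet. The first did not separate the diets, the next was higher on both high-calcium arrays and Dnajc30 was lower on both.

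Ribosomal and nuclear members were also close on these probe sets. Dnajc2, the ribosome-bound partner of Hspa14, read 0.678 and 0.829 with high-calcium whey, against 0.784 with the standard diet, and Dnajc21, of ribosome maturation, read 0.523 and 0.518 with high-calcium whey, against 0.490 with the standard diet. Dnajc8, found with splicing factors, read 4.32 and 3.55 with high-calcium whey, against 3.78 with the standard diet, and Dnajc9, a histone chaperone, read 0.846 and 0.834 with high-calcium whey, against 0.807 with the standard diet. Among these the high-calcium arrays lay above the standard array in Dnajc21 and Dnajc9 and on either side of it in Dnajc2 and Dnajc8.

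Vesicle and cytosolic members differed little on their brightest probe sets. Dnajc5, the cysteine string protein of secretory vesicles, read 1.57 and 1.46 with high-calcium whey, against 1.51 with the standard diet, and Dnajc13, of endosomes, read 0.810 and 0.936 with high-calcium whey, against 1.03 with the standard diet. Dnajc7, which links Hsp70 and Hsp90, read 1.14 and 0.982 with high-calcium whey, against 1.17 with the standard diet, and Dnajc24, an enzyme partner in diphthamide synthesis, read 0.632 and 0.512 with high-calcium whey, against 0.459 with the standard diet. Both high-calcium arrays were lower in Dnajc13 and Dnajc7 and higher in Dnajc24.

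The 6 remaining members above background on every array were Dnajc4, Dnajc12, Dnajc14, Dnajc18, Dnajc25 and Dnajc28. Dnajc12, which binds aromatic amino acid hydroxylases, read 0.788 and 0.655 with high-calcium whey, against 0.687 with the standard diet, and Dnajc14, a membrane J-protein, read 0.734 and 0.936 with high-calcium whey, against 0.836 with the standard diet. In both the standard array lay between the high-calcium arrays. The other 4 differed by -0.20 (Dnajc25) to 0.27 (Dnajc28) on the log2 scale. Dnajc22, Dnajc27 and Dnajc5b passed background on 2 arrays each, and Dnajc5g on none.

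Genes that work with these chaperones but carry other names were read from 6 lists, and none of their genes was called. Among all genes above background, 35.4% were higher and 27.1% lower on both high-calcium arrays. Of the co-chaperones of Hsp70 and Hsp90, 24 of 25 measured were above background on every array, with 10 higher and 3 lower on both high-calcium arrays and a median difference of 0.088. Bag4, a nucleotide exchange factor of Hsp70, had 0.849 and 0.662 on the high-calcium whey arrays, against 0.515 on the standard array, a difference of 0.54. Bag2, of the same family, read 0.517 and 0.205 with high-calcium whey, against 0.233 with the standard diet, and there replicate 1 alone was high. Bag3, the partner of Hspb8, read 0.901 and 0.893 with high-calcium whey, against 0.725 with the standard diet, above the standard array on both.

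The cytosolic chaperonin TRiC and its feeder prefoldin had all 14 genes above background on every array, 3 higher and 5 lower on both high-calcium arrays, with a median of -0.072. Their largest differences were -0.18 in Cct6a, which read 5.26 and 6.01 with high-calcium whey, against 6.39 with the standard diet, and 0.15 in Cct7, which read 2.67 and 2.67 with high-calcium whey, against 2.41 with the standard diet. The endoplasmic reticulum list had 21 of 22 above background on every array, 7 higher and 5 lower, with a median of 0.061. The lectin chaperones stood on opposite sides there, since Calr read 9.22 and 10.5 with high-calcium whey, against 8.24 with the standard diet, and Canx read 4.22 and 4.47 with high-calcium whey, against 5.11 with the standard diet.

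Mitochondrial chaperones and proteases had all 11 genes above background, 3 higher and 4 lower on both, with a median of 0.043. Afg3l2, an inner membrane protease, read 0.652 and 0.454 with high-calcium whey, against 0.410 with the standard diet, and Lonp1, a matrix protease, read 0.664 and 0.542 with high-calcium whey, against 0.762 with the standard diet, so they too lay on opposite sides of the standard array. Of the heat shock factors and their regulators, 4 were measured and 1, the factor-binding Hsbp1, was above background on every array, at 4.51 and 4.62 with high-calcium whey, against 4.61 with the standard diet. Hsf1 itself is not analysed here. Cryab, a small heat shock crystallin, read 7.55 and 7.57 with high-calcium whey, against 6.97 with the standard diet, and Cryaa was under background on all 4 arrays.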

How the data were processed

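The study hybridised RNA of mouse epididymal fat to 4 Affymetrix arrays. The deposited values are intensities, 1 linear signal per probe set (45101 in all). The submitters' processing notes name RMA, without a version. The lowest intensity on each deposited array is its median divided by 100, and 11 to 75 probe sets per array sit there without order. Array medians were 0.0585 to 0.0963, the highest on high-calcium replicate 1. The sources used here do not say how the authors scaled the arrays. Depth does not apply to arrays, whose number limits the precision.

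Signals were log2 transformed with no constant. Gene names came from the platform annotation (34958 with 1 symbol, 932 with several, 9211 with none), and all 70 members matched a RefSeq record. The 3 probe sets that name both Dnajc19 and a pseudogene were left out, and Hsp90ab1 is not analysed here. Other members had 169 probe sets between them.

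The high-calcium whey arrays (2) were compared with the standard array (1) by limma 3.58.1 in R 4.3.3 (lmFit, eBayes, two-sided, Benjamini-Hochberg adjustment over all genes, threshold 0.05) with 1 residual degree of freedom. The script was tested on simulated data. Figures were drawn with matplotlib 3.10.9. Alternatives changed the probe set chosen, the normalization, the filter, the prior variance, an added constant and the arrays used.

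Named genes were a fixed list plus, in each class, up to 3 members by size of the difference and up to 3 by the gap between the high-calcium arrays, and up to 2 genes from each partner list. Members not reached by that rule are given with their values to complete each class. Members and lists were chosen with earlier results of these data known.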

Additional observations from a re-analysis of the deposited data

Results flagged for a closer look

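Dnajb5 read 1.58-fold higher on the array without a stated diet than on the standard array (0.102 against 0.0642), and that array enters no comparison between the diets. Dnajb8 read 1.77-fold higher there than on the standard array (0.0835 against 0.0473), and the array without a stated diet was the only one on which Dnajb8 exceeded background. Both are dim genes, and each of these values rests on 1 array.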

How the results depend on the processing

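No chaperone gene was called in any setting that gave a test, and the lowest adjusted p of a named member over those limma settings was 0.346. With each array centred on its median, 96 of all genes were called, 3 chaperone genes were higher and 29 lower on both high-calcium arrays, and their median difference was -0.30. With a trend and robust estimation 6 genes were called. With quantile normalization 17 chaperone genes were higher and 20 lower on both high-calcium arrays, against 20 higher and 17 lower as deposited. Without replicate 1 or 2 of the high-calcium arrays, no residual degree of freedom is left for a test. On the 1 high-calcium array that remained, 28 to 34 members were higher than the standard array and 25 to 31 lower. Their median difference ran from -0.016 to 0.033, against 0.0053 to 0.064 for all genes above background. In these changed settings no share over all genes was counted beside the members. No paired analysis was possible because 1 array carries the standard label and that label holds no replicate number.

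Of 36 named members above background, 9 kept their direction in every setting, namely Hspa14, Hspb7, Dnajb1, Dnajb4, Dnajb9, Dnaja4, Dnajb5, Dnajc6 and Dnajc10. Centring moves the difference of every gene by the same amount, and the median of all genes above background was then -0.29. Centring turned the log2 difference to -0.30 for Hspa5, -0.30 for Hspa8, -0.29 for Hspa9, -0.16 for Hsph1, -0.094 for Hspd1, -0.15 for Hspe1, -0.30 for Hspb1, -0.065 for Hspb2, -0.19 for Hspb8, -0.24 for Dnaja1, -0.29 for Dnaja2, -0.040 for Dnajb11, -0.083 for Dnajb12 and -0.16 for Dnajc17. The mean of all probe sets turned it to 0.14 for Hspa4, -0.0012 for Hspa5, -0.23 for Hspa8, -0.21 for Hspa9, 0.44 for Hspa13, 0.15 for Hspa12a, 0.041 for Hsp90aa1, 0.60 for Dnaja3, -0.022 for Dnaja2, -0.067 for Dnajc16 and -0.11 for Dnajc17. That mean also takes in probe sets under background. A Dnaja3 probe set under background on every array, for example, had a difference of 1.97. With probe sets ending in _x_at or _s_at left out, among them the brightest of Hspa8, this gene gave -0.41. Quantile normalization gave -0.031 for Hspa5, -0.033 for Hspa8 and 0.014 for Hsp90b1.

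Leaving out 1 high-calcium array gave differences of -0.0061 to 0.053 for Dnaja2, -0.10 to 0.014 for Dnajc15, -0.40 to 0.72 for Dnajc17, -0.55 to 0.089 for Dnajc3, -0.22 to 0.17 for Hsp90b1, -0.14 to 1.10 for Hspa1a, -0.30 to 0.95 for Hspa1b, -0.87 to 0.65 for Hspa2, -0.061 to 0.096 for Hspa5, -4.5e-04 to 0.058 for Hspa9, -0.090 to 0.59 for Hspb2, -0.11 to 1.31 for Hspb6 and -0.016 to 0.27 for Hspb8. Each of these values is 1 high-calcium array minus the standard array, and why the high-calcium arrays differed was not tested. Dim genes near the array median have the least certain values.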
